A study of Mus musculus with 2 samples.

Results

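Solute carriers were described in splenic CD4+ T cells of immunised DBA/1 and C57BL/6 mice. The members were selected by symbol and signal: probe sets with exactly 1 gene symbol that begins with Slc and a digit gave 259 measured genes, and a gene was kept where a probe set exceeded the median signal of its array in either strain. This left 110 members of 12393 measured genes. Slc40a1, Slc11a1 and Slc11a2 were not part of the set. The 2 samples were DBA/1 mice, which are susceptible to arthritis, and C57BL/6 mice, which are resistant, both immunised with GPI (glucose-6-phosphate isomerase) and sampled on day 7. Splenic CD4+ T cells were isolated by magnetic sorting and 1 array was hybridised per strain. The labels give no age, sex or number of mice behind each RNA sample, and both strains were immunised, so the strain difference was measured in the immunised state.

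Solute carriers are membrane proteins that move sugars, amino acids, ions, metals, vitamins and nucleotides across the plasma membrane and the membranes of organelles. An activated CD4+ T cell is known to depend on glucose carriers of the Slc2 family and on the Slc3a2 and Slc7a5 amino acid exchanger. Mitochondrial carriers of the Slc25 family link the metabolism of the cytosol to that of mitochondria, and the Slc35 carriers feed sugar donors to the Golgi. Some solute carriers are better known from other spleen cells, such as the lysosomal peptide carriers of phagocytes and the anion exchanger of red cells.

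Each signal is the deposited linear intensity of a probe set. A ratio is the log2 of the DBA/1 signal over the C57BL/6 signal, so that 1 is 2-fold higher in DBA/1. Signals under the median of an array (37.55 for DBA/1 and 38.045 for C57BL/6) were set to it, and a ratio with 1 side there is a bound, written "at least". A single array per strain allows neither a test nor a replicate error. Genes with several probe sets offer an internal repeat, and pairs from 2325 genes gave an error of 0.31 log2 units per probe set, which covers probe error only. The same measurement over 28 members gave 0.29.

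Markers of CD4+ T cells were well over the median on both arrays, and markers of other spleen cells were present and differed between them. The 9 measured T cell markers of 10 listed read 720 to 3538 in DBA/1 and 791 to 3499 in C57BL/6, with a median log2 ratio of -0.08. They summed to 13000 in DBA/1 and 14214 in C57BL/6, with 7 of 9 lower in DBA/1. The neutrophil list summed to 34319 in DBA/1 and 10618 in C57BL/6, with 10 of 10 usable members higher in DBA/1. The monocyte and macrophage list summed to 6565 in DBA/1 and 2880 in C57BL/6, with 12 of 12 higher in DBA/1. The B cell list summed to 1601 in DBA/1 and 694 in C57BL/6 (7 of 7 higher), and the dendritic cell list to 1575 in DBA/1 and 767 in C57BL/6 (4 of 4 higher). The CD8 and NK cell list was lower in DBA/1, at 672 against 1537 in C57BL/6, with 6 of 7 usable members lower. Erythroid markers summed to 1874 in DBA/1 and 1749 in C57BL/6, with 3 of 9 higher. The platelet list summed to 207 in DBA/1 and 175 in C57BL/6. Cxcr2 (neutrophils), Fcgr1 (macrophages), Pax5 (B cells), Xcr1 (dendritic cells) and Ncr1 (NK cells) were under the median on both arrays, as were Hba-a1 and Epb42 of the erythroid list and Itga2b, Gp9 and Gp1bb of the platelet list. These values stand beside every strain difference below, and their part in those differences was not tested. Fewer cells of a type and less RNA per cell cannot be told apart in such bulk samples.

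**Figure D1:**
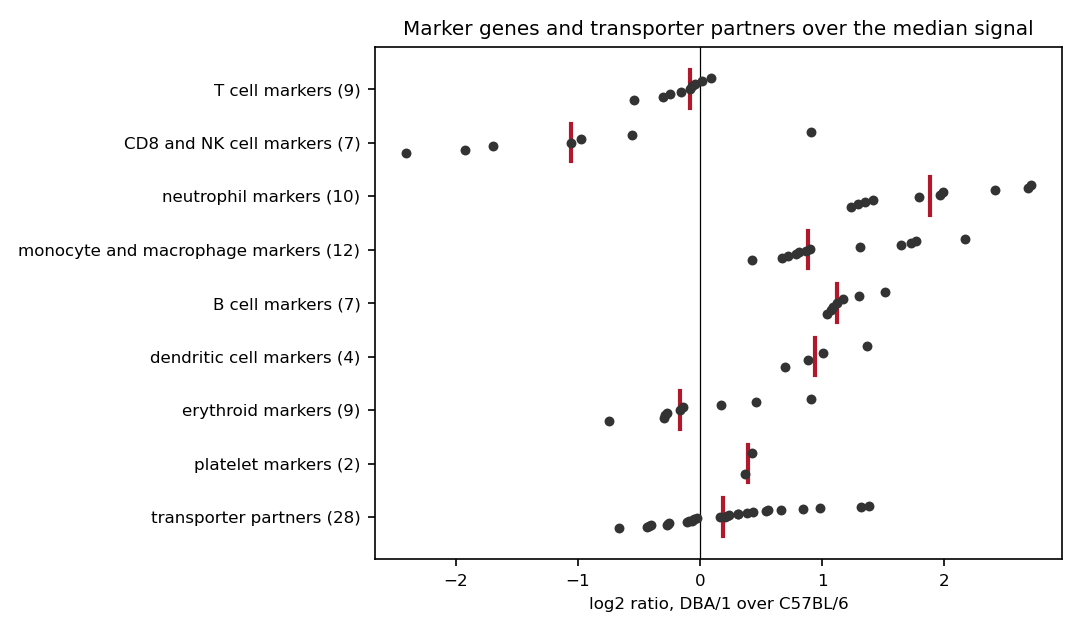
Log2 ratio of DBA/1 over C57BL/6 (horizontal axis) for marker genes of 8 cell groups and for transporter partners, 1 point per gene over the median signal on at least 1 array, with the number of genes in brackets and the median as a red bar. Neutrophil, macrophage, B cell and dendritic cell markers lie to the right of 0, and CD8 and NK cell markers mostly to the left.

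The 110 solute carriers differed little between the strains. The median log2 ratio was 0.05 over the 109 members with a ratio, against 0.10 over 6935 genes over the median signal, and the median size of the difference without its sign was 0.28 for members and 0.27 for all such genes. Of the members, 56 had a ratio above 0 (51.4%), against a background of 60.6% of all genes. At least 2-fold higher in DBA/1 were 4 members (3.67%), where 3.84% of all genes passed that fold, and at least 2-fold higher in C57BL/6 was 1 member (0.917%), where 1.90% of all genes did. At 1.5-fold, a threshold added after the values were seen, the numbers were 13 members (11.9%) against a background of 11.8%, and 6 members (5.50%) against 5.97%. The members' shares lie near those of all genes. Both arrays were over the median for 94 members, DBA/1 alone for 5 and C57BL/6 alone for 10. Slc31a1, the copper importer, was kept through a probe set other than its brightest, which was under the median on both arrays, and has no ratio.

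**Figure D2:**
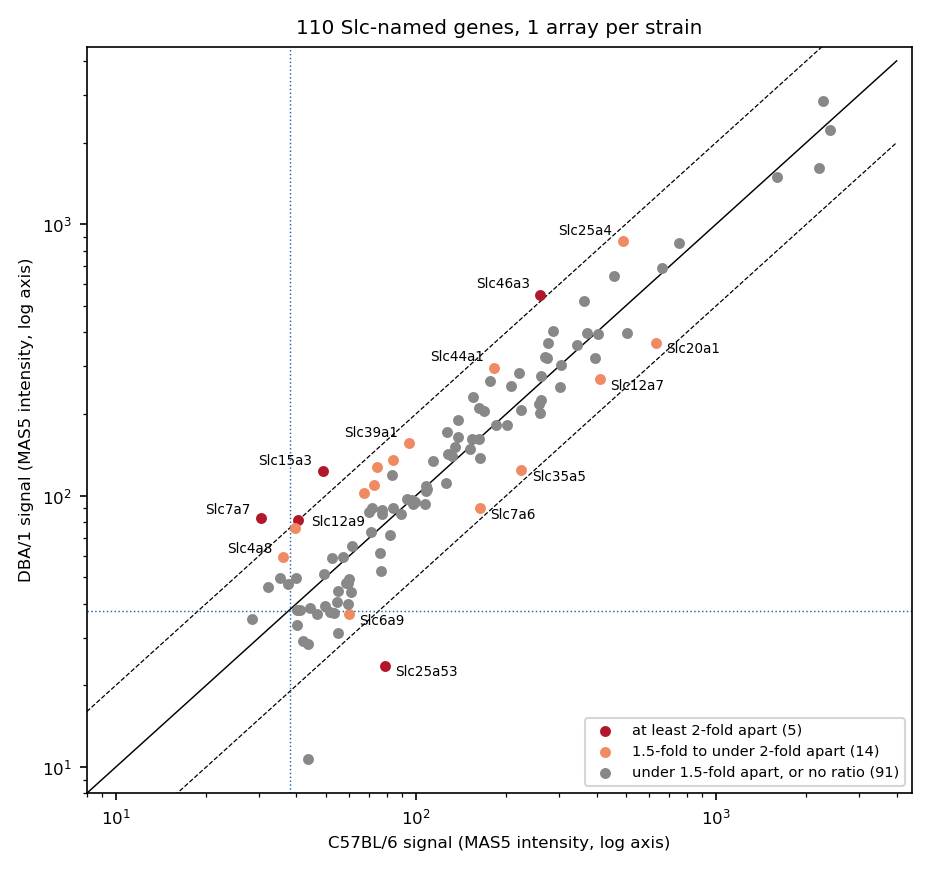
Signal of each of the 110 members in DBA/1 (vertical) against C57BL/6 (horizontal), both on log axes, with the line of equal signal, 2-fold lines (dashed) and the median of each array (dotted). Most points lie between the 2-fold lines, with 4 members named above them and Slc25a53 below. Signals are shown before the floor, so Slc19a2 (not named, 10.7 in DBA/1 and 43.7 in C57BL/6) also lies below. Its ratio with the floor is a bound of 1.16-fold.

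The signal threshold kept very different shares of the substrate classes, which were set by Slc family and, where a family carries several kinds of substrate, gene by gene. All 13 measured carriers of nucleotide sugars and acetyl-CoA passed, as did 16 of 20 carriers of zinc, copper and other transition metals and 25 of 33 mitochondrial and peroxisomal carriers. By contrast 3 of 31 carriers of organic anions, cations and drugs passed, 2 of 12 carriers of neurotransmitters, amines and osmolytes, 3 of 15 of monocarboxylates, dicarboxylates and lipids, 6 of 21 of sugars and polyols, and 10 of 35 of amino acids. These shares follow from the values that chose the members and are given as a description. Over all measured genes 56.0% passed the same threshold, and of the 259 solute carriers 42.5% did. Just inside the threshold lay Slc31a1, with 39.0 in DBA/1 and 23.3 in C57BL/6, and Slc30a1, with 37.8 in DBA/1 and 40.0 in C57BL/6. Just outside lay Slc25a29, with 32.8 in DBA/1 and 37.6 in C57BL/6, and Slc37a2, with 36.7 in DBA/1 and 27.0 in C57BL/6.

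Slc15a3 had the highest ratio of the members. This lysosomal carrier exports histidine and small peptides and is known from macrophages and dendritic cells. It read 123 in DBA/1 and 49.0 in C57BL/6, a log2 ratio of 1.33 (2.51-fold). Its relative Slc15a4, which resides in endolysosomes and is needed for signalling by nucleic acid sensing toll-like receptors, read 205 in DBA/1 and 168 in C57BL/6 (0.28). Both were higher in DBA/1, and the ratio of Slc15a4 lies within the error of a probe set. Macrophage and dendritic cell markers were higher in DBA/1 beside them (medians 0.88 and 0.94), as were neutrophil and B cell markers (1.88 and 1.12). CD8 and NK cell markers were lower (-1.06). The part of any of these cells in the Slc15a3 ratio was not tested.

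Slc7a7, the light chain y+LAT1, exports cationic amino acids and is known from macrophages. It read 82.6 in DBA/1 and 30.4 in C57BL/6, under the median there, so it was at least 2.17-fold higher in DBA/1 (log2 ratio 1.12). Slc46a3, a lysosomal membrane carrier, read 551 in DBA/1 and 260 in C57BL/6, 2.12-fold higher in DBA/1 (1.08). It was the only one of the 43 members with a signal over the 75th percentile of an array that differed by 2-fold, where 3.98% of 3924 such genes passed 2-fold toward DBA/1 and 1.99% toward C57BL/6. Slc12a9, a cation-chloride cotransporter relative, read 81.2 in DBA/1 and 40.5 in C57BL/6, 2.004-fold higher in DBA/1 (1.00), which is right at the threshold. Under the 3 rescalings (median centring, quantile normalization, lowess) Slc46a3 had 0.96 to 0.997, just under 2-fold, and Slc12a9 0.92 to 1.01, so both calls depend on the scaling, and with log2(signal + 32) no member reached 2-fold.

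Slc25a53, a mitochondrial carrier family member, read 23.7 in DBA/1, under the median, and 78.7 in C57BL/6. It was at least 2.10-fold higher in C57BL/6 (log2 ratio -1.07) and was the only member past 2-fold in that direction. All 5 members past 2-fold have 1 probe set each, so none has an internal repeat. Probe sequences were not used here, and whether the strains differ in sequence under a probe set was not tested. With the floor raised to percentile 60, Slc25a53 had -0.09, Slc7a7 0.19, Slc12a9 0.17 and Slc15a3 0.77, and without a floor Slc25a53 had -1.73 and Slc7a7 1.44. Slc46a3 kept 1.08 under both, so the sizes of the other 4 depend on the floor. Apart from Slc46a3, their higher signal was under the 75th percentile of its array.

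**Figure D3:**
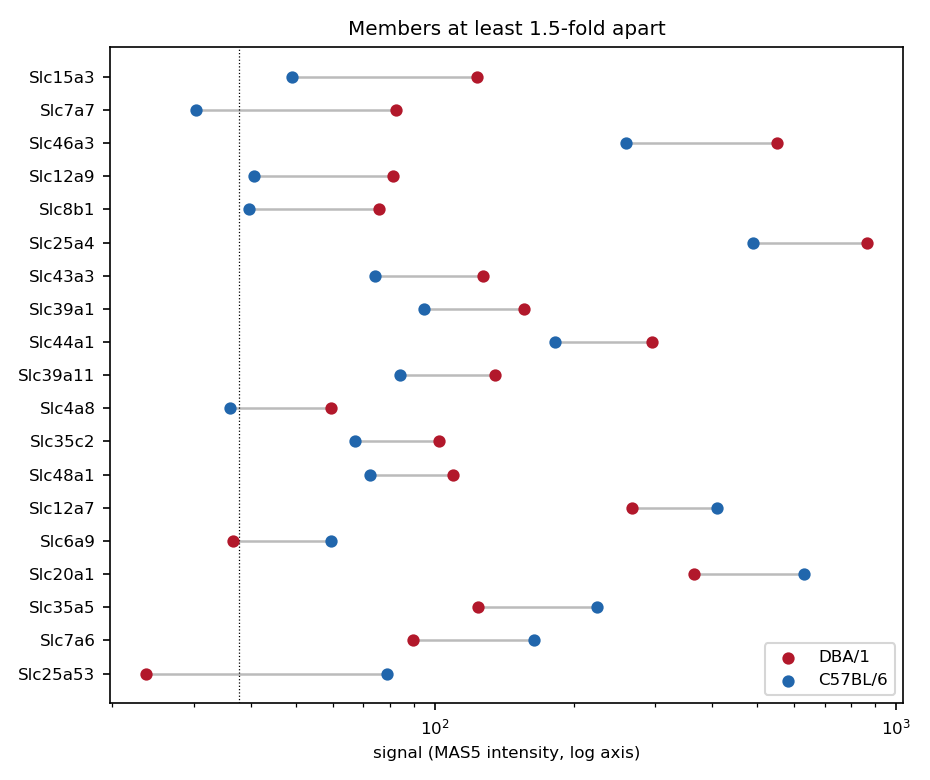
Signal (log axis) of the 19 members at least 1.5-fold apart, DBA/1 in red and C57BL/6 in blue, with the DBA/1 array median as a dotted line. From Slc15a3 down to Slc48a1 the DBA/1 signal is the higher one, and from Slc12a7 down to Slc25a53 it is the lower one.

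The promoters of Slc46a3 and Slc12a9, which were at least 2-fold higher in DBA/1, are shown with that of Slc30a1, the zinc exporter that the metal-responsive factor Mtf1 is known to regulate. They run from 250 bases before to 50 after the annotated start, from RefSeq on build GRCm38.p6. Capitals mark matches on either strand to 4 motifs chosen after the values were seen: GAGGAAGT (a PU.1-type site), TGAGTCA (AP-1), CACGTG (E-box) and TGCGCTC (a metal response element core). None of the 4 motifs contains another.
Slc46a3, chr5:147894766-147895065, minus strand: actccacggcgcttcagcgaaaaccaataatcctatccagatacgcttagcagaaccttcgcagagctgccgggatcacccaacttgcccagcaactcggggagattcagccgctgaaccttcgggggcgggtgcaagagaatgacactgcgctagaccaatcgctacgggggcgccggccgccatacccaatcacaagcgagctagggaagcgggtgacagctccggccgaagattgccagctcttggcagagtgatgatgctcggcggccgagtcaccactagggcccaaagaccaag
Slc12a9, chr5:137333533-137333832, minus strand: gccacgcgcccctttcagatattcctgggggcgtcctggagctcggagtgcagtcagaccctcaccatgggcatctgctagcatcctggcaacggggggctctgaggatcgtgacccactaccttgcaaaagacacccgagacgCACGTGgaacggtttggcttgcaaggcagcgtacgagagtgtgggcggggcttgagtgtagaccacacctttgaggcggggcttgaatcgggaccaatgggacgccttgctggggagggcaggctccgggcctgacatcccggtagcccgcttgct
Slc30a1, chr1:191906531-191906830, plus strand: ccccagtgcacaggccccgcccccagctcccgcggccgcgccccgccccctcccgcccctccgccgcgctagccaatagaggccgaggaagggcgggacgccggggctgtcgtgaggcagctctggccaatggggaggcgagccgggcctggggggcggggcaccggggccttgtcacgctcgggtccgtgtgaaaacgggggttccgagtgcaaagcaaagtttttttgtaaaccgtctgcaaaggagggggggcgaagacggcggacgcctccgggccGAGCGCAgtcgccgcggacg
The Slc12a9 window holds 1 E-box, the Slc30a1 window 1 metal response element core on the reverse strand, and the Slc46a3 window none of the 4. Promoters of 85 members were in the RefSeq table, 121 in all with alternative starts. CACGTG was in 18 of these 121 (14.9%), against 10.6% of 7376 promoters of genes over the median signal and 7.15% of all 32851. TGCGCTC was in 11 (9.09%), against 5.45% and 3.74%, GAGGAAGT in 2 (1.65%), against 3.31% and 3.20%, and TGAGTCA in 0, against 3.63% and 5.2%. A match is only a run of letters in the window.

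Amino acid carriers went both ways, with 7 of 10 above 0 (60.6% of all genes) and a median log2 ratio of 0.08. This median was between -0.03 and 0.00 under the 3 rescalings. The heavy chain Slc3a2 (CD98), which pairs with several Slc7 light chains at the cell surface, read 522 in DBA/1 and 364 in C57BL/6 (0.52). Its light chain Slc7a5, the large neutral amino acid exchanger LAT1, read 87.4 in DBA/1 and 70.1 in C57BL/6 (0.32). The light chain Slc7a6 (y+LAT2) went the other way and read 89.7 in DBA/1 and 164 in C57BL/6 (-0.87), but its other probe set read 107 in DBA/1 and 115 in C57BL/6 (-0.10). Slc3a2 and Slc7a7 were thus higher in DBA/1, and the size for Slc7a6 depended on the probe set. Slc7a11, the cystine carrier that also uses Slc3a2, was under the median on both arrays, at 7.39 in DBA/1 and 12.7 in C57BL/6.

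Glutamine and other neutral amino acids enter through Slc1a5, Slc38a1 and Slc38a2. Slc1a5 read 399 in DBA/1 and 371 in C57BL/6 (0.11) and Slc38a2 688 in DBA/1 and 663 in C57BL/6 (0.05). Both ratios are under the error of a probe set, that of Slc38a2 was below 0 under all 3 rescalings, and that of Slc1a5 was -0.01 under quantile normalization and lowess. Slc38a1 was lower in DBA/1, at 201 against 259 in C57BL/6 (-0.36). Slc38a10 had 7 probe sets, of which the 5 over the median on both arrays gave ratios of 0.06 to 0.27. Slc66a1, the lysosomal exporter of cationic amino acids, read 33.5 in DBA/1 and 40.1 in C57BL/6 and Slc66a2 88.6 in DBA/1 and 77.1 in C57BL/6, with another Slc66a2 probe set at 0.76.

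Among sugar carriers, the glucose carrier Slc2a3 was higher in DBA/1 on its bright probe sets and Slc2a1 was not. Slc2a3 (GLUT3) read 645 in DBA/1 and 458 in C57BL/6 (0.49), and a second probe set over the median gave 0.36, while a dim one read 30.5, under the median, in DBA/1 and 43.9 in C57BL/6 (-0.23). Slc2a1 (GLUT1) read 183 in DBA/1 and 202 in C57BL/6 (-0.14), with other probe sets at -0.01 and -0.20. The bright probe sets within each gene lie close together, but those of Slc2a3 all carry a suffix (_s_at or _x_at). Without suffix probe sets Slc2a3 rests on the dim one and its direction changes (-0.23). Slc37a4, which carries glucose-6-phosphate into the endoplasmic reticulum, read 89.997 in DBA/1 and 71.4 in C57BL/6 (0.33). Its relatives Slc37a1 and Slc37a3 had ratios of -0.06 and -0.08, and the sugar carrier Slc50a1 read 226 in DBA/1 and 261 in C57BL/6 (-0.21). The median of the 6 was -0.07, and all lay within 1.5-fold.

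Lactate and other monocarboxylates cross the plasma membrane through Slc16a1 (MCT1), which read 303 in DBA/1 and 304 in C57BL/6, a log2 ratio of -0.0024. Its chaperone basigin (Bsg) read 568 in DBA/1 and 506 in C57BL/6 (0.17), while embigin (Emb), another chaperone of monocarboxylate carriers, read 2293 in DBA/1 and 1163 in C57BL/6 (0.98). Slc16a3 (MCT4) was under the median on both arrays, at 23.0 in DBA/1 and 20.0 in C57BL/6. Slc16a6 read 47.3 in DBA/1 and 37.5 in C57BL/6 (at least 1.24-fold higher in DBA/1), and the fatty acid carrier Slc27a4 51.5 in DBA/1 and 49.4 in C57BL/6 (0.06).

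Of the 25 mitochondrial and peroxisomal carriers, 12 were above 0 and 13 below, with a median of -0.004. Among all genes 60.6% were above 0, with a median of 0.10. Under the 3 rescalings the class median was -0.09 to -0.07, where that of all genes was 0.02. The ADP/ATP carriers and the phosphate carrier, which together supply ATP synthase, differed in direction. Slc25a4 (ANT1) read 866 in DBA/1 and 490 in C57BL/6 (0.82), and its 2 other probe sets over the median gave 0.73 and 0.69. Slc25a5 (ANT2) read 2836 in DBA/1 and 2279 in C57BL/6 (0.32) on its brightest probe set. Its 4 brightest probe sets had ratios of 0.19 to 0.32 and its 4 dimmer ones of -0.52 to -0.07. Slc25a3, the phosphate carrier, was lower in DBA/1, at 1610 against 2210 in C57BL/6 (-0.46), on 1 probe set. Slc25a4 was higher in DBA/1 on all 3 usable probe sets, and Slc25a5 had no single direction. Those 3 all carry a suffix (_a_at or _x_at), and whether they are independent repeats was not tested. The Slc25a4 probe set without such a suffix was under the median on both arrays, at 2.82 in DBA/1 and 4.17 in C57BL/6.

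Carriers of respiratory substrates and amino acids went both ways. The oxoglutarate and malate exchanger Slc25a11 read 403 in DBA/1 and 286 in C57BL/6 (0.50). The carnitine and acylcarnitine carrier Slc25a20 read 283 in DBA/1 and 221 in C57BL/6 (0.36), with a second probe set at 0.45. The dicarboxylate carrier Slc25a10, near the median of the arrays, read 49.8 in DBA/1 and 40.0 in C57BL/6 (0.32). The glutamate carrier Slc25a22 and the ornithine carrier Slc25a15 were lower in DBA/1, with ratios of -0.54 and -0.57 at signals of 40.0 to 76.8. Slc25a51, which imports NAD into mitochondria, read 322 in DBA/1 and 396 in C57BL/6 (-0.30), and another probe set gave -0.02.

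Carriers for iron, heme synthesis and glutathione lay close to 0. The mitoferrins Slc25a37 and Slc25a28 read 218 in DBA/1 and 257 in C57BL/6 (-0.24) and 162 in DBA/1 and 163 in C57BL/6 (-0.0037). Slc25a38, the glycine carrier needed for heme synthesis in erythroid cells, read 93.1 in DBA/1 and 107 in C57BL/6 (-0.21), and the glutathione carrier Slc25a39 857 in DBA/1 and 754 in C57BL/6 (0.18). None of the 4 differed by more than the error of a probe set. The remaining Slc25 members ranged from -0.50 for Slc25a25, an ATP-magnesium and phosphate carrier under the median in DBA/1, through Slc25a33 (-0.31), Slc25a24 (-0.21), Slc25a14 (-0.12), Slc25a30 (-0.12), the peroxisomal Slc25a17 (0.01), Slc25a36 (0.08), Slc25a44 (0.09), Slc25a46 (0.24) and the coenzyme A carrier Slc25a42 (0.27) to Slc25a45 (0.29). The values of Slc25a25 and Slc25a42 are bounds, with 1 array under its median. For Slc25a30 the other 2 probe sets over the median gave 0.12 and 0.13, the opposite direction.

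Zinc is handled by a pair of carrier families. Slc30 proteins move zinc out of the cytosol and Slc39 proteins move it in. Of 6 Slc30 members 4 had ratios above 0 (median 0.15, range -0.08 to 0.43), and of 8 Slc39 members 3 did (median -0.16, range -0.46 to 0.72). Among all genes 60.6% had ratios above 0. The difference between the families was not tested. The secretory pathway carriers Slc30a5, Slc30a6 and Slc30a7 had ratios of 0.27, 0.43 and 0.15. The plasma membrane exporter Slc30a1 read 37.8 in DBA/1 and 40.0 in C57BL/6, close to the median on both arrays, and Slc30a4 and Slc30a9 gave 0.15 and -0.02.

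Among zinc importers, Slc39a1 of the plasma membrane read 156 in DBA/1 and 94.6 in C57BL/6 (0.72) and Slc39a11 135 in DBA/1 and 83.9 in C57BL/6 (0.69). Slc39a6 read 367 in DBA/1 and 276 in C57BL/6 (0.41), and a second probe set gave 0.36. Slc39a7, which releases zinc from the endoplasmic reticulum, was lower in DBA/1 at 250 against 301 in C57BL/6 (-0.27). These 4 carriers were clear of the median on both arrays. Slc39a9 had a ratio of -0.06, and Slc39a3, Slc39a13 and Slc39a14 (-0.46, -0.32 and -0.32) had signals of 36.7 to 60.7, and the ratio of Slc39a13 is a bound. Slc39a8 was under the median on both arrays, at 36.2 in DBA/1 and 32.9 in C57BL/6. Of zinc-responsive genes, metallothionein Mt1 read 119 in DBA/1 and 47.7 in C57BL/6 (1.32), and Mt2 32.5 in DBA/1 and 50.6 in C57BL/6 (a bound of -0.43). The metal-responsive factor Mtf1 read 66.4 in DBA/1 and 45.1 in C57BL/6 (0.56). The metallothionein genes thus differed in direction. The copper carrier relative Slc31a2 read 39.3 in DBA/1 and 49.7 in C57BL/6 (-0.34).

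The class of vitamins, choline, heme and nucleosides had a median of 0.37 over 10 members, with 7 above 0 (60.6% of all genes). The median was 0.28 to 0.29 under the 3 rescalings, 0.16 as a mean over all probe sets and 0.10 without suffix probe sets. Besides Slc46a3 it held Slc43a3, an adenine carrier, at 127 in DBA/1 and 74.2 in C57BL/6 (0.78). The choline carrier Slc44a1 read 296 in DBA/1 and 182 in C57BL/6 (0.70), and its relative Slc44a2 2220 in DBA/1 and 2397 in C57BL/6 (-0.11), with other probe sets at -0.005 and 0.21. The nucleoside carrier Slc29a1 (ENT1) read 265 in DBA/1 and 177 in C57BL/6 (0.58), and the lysosomal Slc29a3 137 in DBA/1 and 164 in C57BL/6 (-0.26). Slc44a1 and Slc29a1 were higher in DBA/1, and Slc44a2 had no single direction.

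Slc48a1, which moves heme out of lysosomes, read 110 in DBA/1 and 72.3 in C57BL/6 (0.60), but a second probe set read 68.2 in DBA/1 and 102 in C57BL/6 (-0.58), so its direction depended on the probe set. The folate carrier Slc19a1 read 142 in DBA/1 and 128 in C57BL/6 (0.15), with a second probe set at 0.38. The thiamine carrier Slc19a2 read 10.7 in DBA/1, under the median, and 43.7 in C57BL/6, at least 1.16-fold higher in C57BL/6. The ascorbate carrier Slc23a2 had a ratio of 0.06. Over 7 lysosomal members of any class, a grouping made after the values were seen, 4 had ratios above 0 (60.6% of all genes). The range was -0.26 to 1.33.

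Ion carriers differed by gene. Slc12a7 (KCC4), which lets potassium and chloride leave the cell, was lower in DBA/1 at 268 against 410 in C57BL/6 (-0.61), and its second probe set gave -0.80. Slc12a2 (NKCC1), which brings sodium, potassium and chloride in, read 190 in DBA/1 and 139 in C57BL/6 (0.46). The bicarbonate carrier Slc4a8 read 59.4 in DBA/1 and 36.0 in C57BL/6, at least 1.56-fold higher in DBA/1. The anion exchanger Slc4a2 and the sulfate carrier Slc26a2 had ratios of 0.09 and 0.24, and the anion exchanger Slc26a6 of -0.43 at signals of 40.7 in DBA/1 and 54.7 in C57BL/6. The direction within the Slc12 family thus differed between its members.

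Slc4a1 (band 3), the anion exchanger of red cells, read 397 in DBA/1 and 506 in C57BL/6 (-0.35), and its second probe set gave -0.44. The urea carrier Slc14a1, also known from red cells, was higher in DBA/1 at 210 against 163 in C57BL/6 (0.37), with a second probe set at 0.40. The glycine carrier Slc6a9 read 36.5 in DBA/1 and 59.7 in C57BL/6, at least 1.59-fold higher in C57BL/6. The usable erythroid markers also went both ways, from Hbb-b2 at -0.74 to Car1 at 0.91, with a median of -0.16.

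Slc20a1 (PiT1), the sodium-coupled importer of phosphate, read 366 in DBA/1 and 631 in C57BL/6, 1.73-fold higher in C57BL/6 (-0.79). A second, dimmer probe set read 9.69 in DBA/1 and 95.1 in C57BL/6, in the same direction, with DBA/1 under the median. Its relative Slc20a2 read 28.4 in DBA/1 and 43.6 in C57BL/6, at least 1.16-fold higher in C57BL/6. Both were lower in DBA/1, as was the mitochondrial phosphate carrier Slc25a3. The ratio of Slc20a2 is a bound of -0.22, within the error of a probe set, and that of Slc25a3 rests on 1 probe set.

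The mitochondrial sodium and calcium exchanger Slc8b1 read 75.8 in DBA/1 and 39.5 in C57BL/6 (0.94), with C57BL/6 just over its median, and 0.07 with the floor at percentile 60. The magnesium carriers Slc41a1, Slc41a2 and Slc41a3 had ratios of -0.03, -0.17 and -0.29, and the sodium and proton exchanger Slc9a8 of -0.46, where those of Slc41a2 and Slc9a8 are bounds. Of these 4, only Slc41a1 was clear of the median on both arrays, at 149 in DBA/1 and 152 in C57BL/6. The taurine carrier Slc6a6 (0.10), the carnitine carrier Slc22a5 (-0.05) and the vesicular nucleotide carrier Slc17a9 (-0.19) lay within the error of a probe set.

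The class of nucleotide sugars and acetyl-CoA had a median of 0.07 over 13 members, with 8 above 0 (60.6% of all genes). Slc35b1, which imports ATP into the endoplasmic reticulum, read 231 in DBA/1 and 156 in C57BL/6 (0.57). Slc35a1, which supplies CMP-sialic acid to the Golgi, read 164 in DBA/1 and 139 in C57BL/6 (0.25), with a second probe set at 0.81. Slc35c2 read 102 in DBA/1 and 67.1 in C57BL/6 (0.61), with a second probe set at 0.10. Sizes for the last pair depended on the probe set. Slc35a5 read 124 in DBA/1 and 225 in C57BL/6 (-0.86), but another probe set gave 0.21, the opposite direction.

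Other carriers of Golgi donors had ratios on both sides of 0. The UDP-galactose carrier Slc35a2, the UDP-N-acetylglucosamine carrier Slc35a3 and the GDP-fucose carrier Slc35c1 had ratios of 0.07, 0.38 (a bound) and -0.18. Carriers of the sulfate donor, Slc35b2 and Slc35b3, had -0.30 and -0.04, and Slc35a4, Slc35b4, Slc35d1 and the acetyl-CoA carrier Slc33a1 had 0.07, 0.05, -0.27 and 0.17. A second Slc35a4 probe set gave -0.12. Of members with no settled substrate, Slc10a3 read 119 in DBA/1 and 83.0 in C57BL/6 (0.52), Slc35e1 had -0.01 with another probe set at 0.52, and Slc35f6 was at least 1.46-fold higher in C57BL/6. The Slc-named adaptor genes Slc9a3r1, a scaffold beneath the plasma membrane, and Slc4a1ap are no transporters and had ratios of -0.10 and -0.04, with other Slc9a3r1 probe sets at -0.04 and 0.12.

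Second probe sets of the same gene agreed on direction for most members. Of 28 members with a pair of probe sets over the median on both arrays, 23 had the same sign in both, and the median distance between the ratios was 0.16. The distance was over 0.43, the SD of such distances over all genes, for 7 members: Slc48a1, Slc35a5, Slc7a6, Slc35a1, Slc66a2, Slc35e1 and Slc35c2. Across all genes 1581 of 2325 pairs had the same sign. Of the 19 members at least 1.5-fold apart, 9 have 1 probe set.

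**Figure D4:**
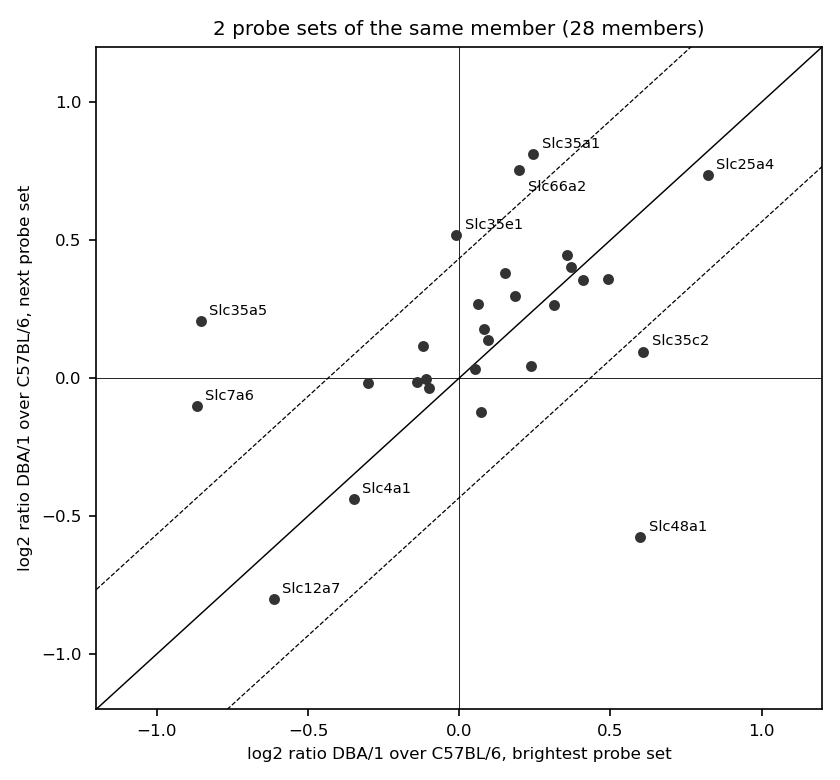
Log2 ratio of the 2 brightest probe sets of each of 28 members, brightest on the horizontal and next on the vertical axis, with the line of equal ratios and lines at 0.43 to either side (dashed). Slc25a4, Slc12a7 and Slc4a1 lie near the line, and the 7 members named away from it lie beyond the dashed lines.

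Partners of the carriers came from a list of chaperones, regulators and enzymes of the same pathways. They had a median log2 ratio of 0.19 over 28 usable of 36 genes, with 15 above 0 (60.6% of all genes). At least 2-fold higher in DBA/1 were 2 (3.84% of all genes), and none was at least 2-fold higher in C57BL/6 (1.90%). Those 2 were Mt1 and Asns, the asparagine synthetase that amino acid shortage is known to induce, which read 99.0 in DBA/1 and 28.9, under the median, in C57BL/6 (at least 2.60-fold). Ddit3, Ddit4 and Sesn2 of the same list were lower in DBA/1 (-0.40, -0.41 and a bound of -0.27). Trib3 and Chac1 were under the median on both arrays. The outer mitochondrial channels Vdac1, Vdac2 and Vdac3 had ratios of 0.44, 0.54 and 0.22, and the pyruvate carrier subunit Mpc1 of 0.31. Hexokinase Hk2 read 125 in DBA/1 and 69.7 in C57BL/6 (0.84), and Hk1 had -0.06. Lamtor1, which anchors nutrient sensing to the lysosome, read 1295 in DBA/1 and 819 in C57BL/6 (0.66). The amino acid response factor Atf4 and the antioxidant factor Nfe2l2 were slightly lower in DBA/1 (-0.26 and -0.25). Of the glutathione synthesis genes, Gclm was lower in DBA/1 by more (-0.66), and Gclc had -0.06.

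**Figure D5:**
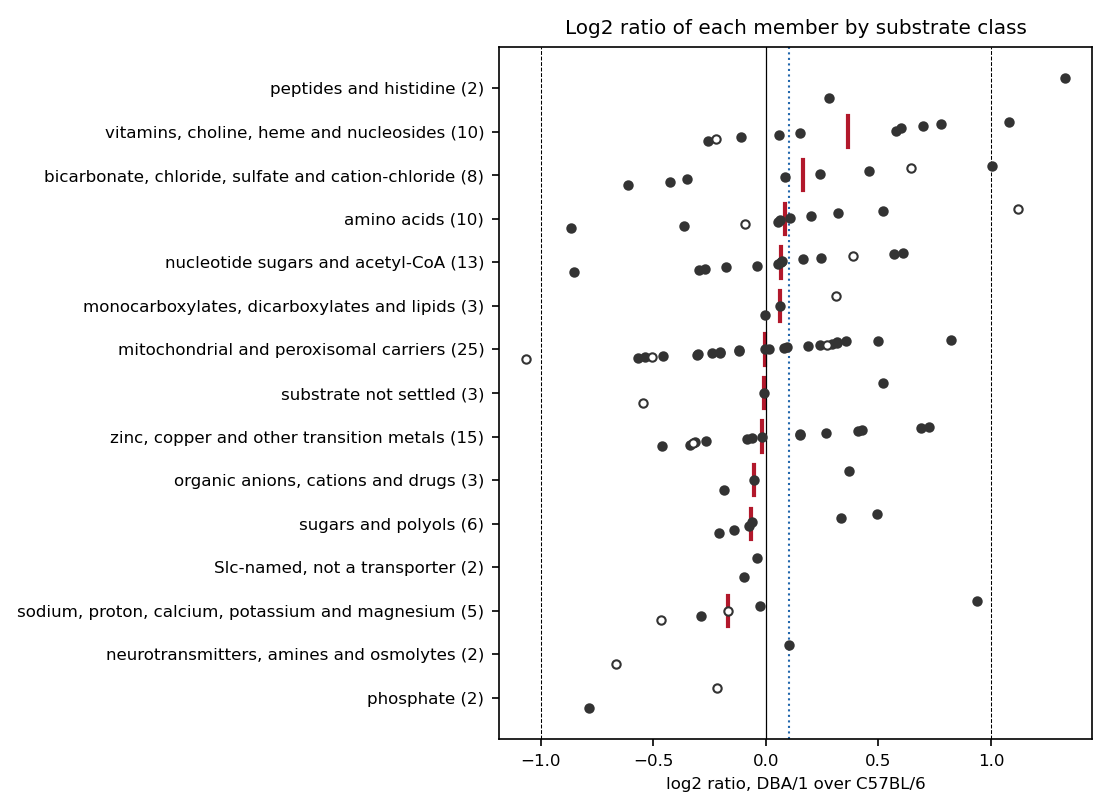
Log2 ratio of each of 109 members by substrate class, with the number of members in brackets; open points have 1 array under its median, red bars are class medians (classes of at least 3), the blue dotted line is the median of all genes over the median signal (0.10) and dashed lines mark 2-fold. Each class with at least 3 members has points on both sides of 0.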

How the data were processed

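RNA of 2 samples, 1 array each, was analysed. Per probe set, 1 linear intensity was deposited by the authors; MAS5 is named in the submitters' processing notes, without version or scaling. Total RNA (3 µg) was labelled from an oligo(dT) primer, per the labels' protocols, so the 3' ends of transcripts were sampled.

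A platform annotation gave 1 symbol for 20380 of 22626 probe sets, several for 691 and none for 1555. All 110 members matched a RefSeq table of assembly GRCm38.p6 by Entrez identifier. Each gene is shown by the probe set of highest mean log2 signal. Signals were floored at each array's median, and genes with both sides at the floor received no ratio. The members and lists were chosen with earlier results of these data known. Named were members past 2-fold, the 10 largest and 10 smallest ratios over the 75th percentile, the 12 brightest, the 3 brightest and 2 largest of each class, and a list of chosen genes, of which 21 were measured by a probe set with 1 symbol; further members were named after their values were seen, to complete each class. Python 3.11.15, pandas 2.3.3 and statsmodels 0.14.6 (lowess, span 0.3) were used, and the ratio step was tested on simulated data. Having 1 array per strain limits the precision throughout.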

Additional observations from a re-analysis of the deposited data

How the results depend on the processing

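With 1 array per strain no replicate could be left out. No paired analysis was possible because each strain has 1 sample. The counts of 2-fold members are small and depend on the processing. The 4 members higher in DBA/1 became 2 after median centring, 2 after quantile normalization, 1 with the floor at percentile 60, 0 with log2(signal + 32) and 13 at 1.5-fold, a threshold chosen after seeing the data. The 1 member higher in C57BL/6 became 2 with no floor, with the floor at percentile 25, as a mean over all probe sets or without suffix probe sets, 0 with the floor at percentile 60, with log2(signal + 32) or with both arrays over the median (added later), and 6 at 1.5-fold. Over the 75th percentile, the 1 member higher in DBA/1 became 0 under median centring, quantile normalization, lowess and log2(signal + 32), 4 with the minimum at percentile 50 and 3 at 1.5-fold. The 0 higher in C57BL/6 became 1 as a mean over all probe sets, 1 with the minimum at percentile 50 and 4 at 1.5-fold. The cause was not tested. The median of the members was -0.05 to 0.08 over the alternatives, and below 0 under all 3 rescalings, where the median of all genes was 0.02. No class median moved by more than the error of a single probe set (0.31), which is a wide margin for a median over several genes. The median of the zinc, copper and other transition metals class ran from -0.10 to 0.21 and changed sign in 7 of 11 settings. That of the vitamins, choline, heme and nucleosides class ran from 0.10 to 0.58. For members with no settled substrate it ran from -0.09 to 0.26. Of 674 alternative values of the 64 named members, 652 stayed within the error of a probe set. Many of these could not move, because a changed floor leaves members above it as they were. Another choice of probe set likewise cannot move members with 1 probe set, so the 652 values are no measure of stability. Among 2-fold members only Slc46a3 kept its size under every floor. No 2-fold member changed direction. All 5 have 1 probe set, and these floors and rescalings could hardly reverse a 2-fold ratio, so this is no measure of stability either. Of the 64 named members, 55 kept their sign throughout, under the same limits.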
